A study of Mus musculus with 6 samples.

Results

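The genes described here are 10 endocytic receptors and coat proteins of the mouse, the rows of the deposited table whose Ensembl identifiers map to *Lrp2*, *Cubn*, *Amn*, *Tfrc*, *Scarb1*, *Cltc*, *Clta*, *Dnm2*, *Cav1* and *Cav2*. All 10 were among the 55774 rows. They were measured by RNA sequencing in 6 pools of 10 blastocysts. Wild-type embryos of the outbred ICR strain were cultured in CZB medium with extracellular vesicles from human Fallopian tubes. They came from females 6 to 8 weeks of age and were cultured for 75 hours. The vesicles came from women with endometriosis in 3 pools (oEV-EMT) and from women without endometriosis in the other 3 (oEV-ctrl). The sample labels give uterine fibroids as the condition of the control donors, whereas the methods of the study give cervical intraepithelial neoplasia. All 6 pools received vesicles, so a level without vesicles is not given here, and the vesicles are human while the embryos are murine. The sources do not say whether the pools of a group came from separate collections of embryos, so the p-values measure the spread between these pools. The methods of the study also do not say which women gave the vesicles of each pool. It is therefore not known whether this spread covers variation between donors. Expression is given as FPKM, in which fragment counts are divided by transcript length and by the size of the library.

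Cells take up vesicles, lipoproteins and nutrient carriers by receptors that gather in pits of the plasma membrane. Clathrin, built from heavy and light chains, coats such pits, and the GTPase dynamin pinches them off. Caveolins coat a different kind of invagination, the caveola. In the mouse blastocyst, the trophectoderm faces the medium, and the primitive endoderm lies on the cavity side of the inner cell mass. The receptors megalin and cubilin are known from the absorptive endoderm that surrounds the early embryo.

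The promoter windows of 4 of the genes are shown first. *Lrp2*, *Cubn* and *Amn* are shown because they encode the parts of 1 receptor complex, and *Cav1* because it had the lowest level of the 10 genes. The windows are from RefSeq on GRCm38.p6, are 300 bases long and are given from 5′ to 3′ on the strand of the gene. Capitals mark GGGCGG (the GC box), CCAAT and TATAAA on either strand. These letters occurred in 35.7%, 37.4% and 13.6% of all 32851 windows of this length.
Lrp2 promoter, chr2:69585980-69586279 (minus strand): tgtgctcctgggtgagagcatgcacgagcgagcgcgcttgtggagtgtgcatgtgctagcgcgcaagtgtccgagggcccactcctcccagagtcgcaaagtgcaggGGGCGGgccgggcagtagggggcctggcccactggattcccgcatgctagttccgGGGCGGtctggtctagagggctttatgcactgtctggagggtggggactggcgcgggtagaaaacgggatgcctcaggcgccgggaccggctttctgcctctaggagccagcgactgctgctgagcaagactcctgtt
Cubn promoter, chr2:13491827-13492126 (minus strand): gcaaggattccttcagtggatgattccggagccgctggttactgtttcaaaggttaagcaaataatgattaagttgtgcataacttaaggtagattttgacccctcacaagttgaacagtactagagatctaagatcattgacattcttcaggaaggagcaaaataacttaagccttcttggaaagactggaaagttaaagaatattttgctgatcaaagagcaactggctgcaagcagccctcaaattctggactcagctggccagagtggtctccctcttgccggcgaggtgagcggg
Amn promoter, chr12:111270846-111271145 (plus strand): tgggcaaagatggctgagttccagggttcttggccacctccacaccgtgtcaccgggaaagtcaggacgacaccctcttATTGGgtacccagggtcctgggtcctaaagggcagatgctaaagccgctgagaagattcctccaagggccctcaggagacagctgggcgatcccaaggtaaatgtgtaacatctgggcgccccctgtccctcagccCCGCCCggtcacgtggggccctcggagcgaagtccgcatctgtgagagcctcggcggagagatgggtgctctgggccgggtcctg
Cav1 promoter, chr6:17306085-17306384 (plus strand): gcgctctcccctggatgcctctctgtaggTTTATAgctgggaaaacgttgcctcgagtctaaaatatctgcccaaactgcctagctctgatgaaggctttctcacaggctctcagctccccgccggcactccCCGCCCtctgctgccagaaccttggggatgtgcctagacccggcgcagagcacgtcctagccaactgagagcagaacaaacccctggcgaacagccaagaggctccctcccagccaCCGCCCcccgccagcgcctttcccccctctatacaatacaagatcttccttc
The *Lrp2* window held 2 GC boxes and 20 CG dinucleotides, more CG than 73.5% of all windows. The *Cubn* window held 0 of the 3 motifs and 5 CG dinucleotides. The *Amn* window held 1 GC box, 1 CCAAT and 15 CG dinucleotides. The *Cav1* window, at the more upstream of its starts, held 2 GC boxes, 1 TATAAA and 13 CG dinucleotides. No motif was present in the windows of all 3 receptor genes.

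The transferrin receptor mRNA carries iron-responsive elements, hairpins in its 3′ untranslated region to which the iron regulatory proteins bind and by which they protect the mRNA from decay. Since *Tfrc* is known for this control of its mRNA level, the elements found in its GENCODE M21 transcripts are given. The pattern was a stem of 5 base pairs around the loop CAGTG and 1 further base other than G, a bulged C before it, and at least 4 of 5 pairs below the bulge, with G-T pairs allowed. It occurred in 24 of 21901 protein-coding genes (0.11%). Capitals mark the loop.
Tfrc hairpin 1, chr16:32631220-32631246: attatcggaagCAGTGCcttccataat
Tfrc hairpin 2, chr16:32631599-32631625: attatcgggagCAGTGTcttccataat
Tfrc hairpin 3, chr16:32631664-32631690: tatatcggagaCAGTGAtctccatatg
Tfrc hairpin 4, chr16:32631711-32631737: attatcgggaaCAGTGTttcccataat
All 4 hairpins belong to 1 *Tfrc* transcript, which is transcribed from the plus strand (GRCm38). They follow its stop codon and do not overlap each other.

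The libraries differed up to 2.06 times in estimated depth. In genes with a single transcript the low FPKM fell on steps, from which 36.0 to 74.1 counts per FPKM in a transcript of 1 kilobase were derived. The ends of this range, oEV-ctrl 1 and oEV-EMT 1, rest on the fewest genes on steps, 442 and 348. The other libraries had 533 to 585. A single unnamed entry held between 15.3% and 31.5% of the summed FPKM of a library, the most in oEV-ctrl 1, and genes of the mitochondrial genome held 3.93% to 4.84% in oEV-EMT and 5.96% to 7.45% in oEV-ctrl. Markers of trophectoderm (7 of 7), epiblast (6 of 6) and primitive endoderm (6 of 6) passed the filter. Of 8 markers of cumulus and granulosa cells, 4 (among them *Amh*, *Cyp19a1* and *Fshr*) were listed at 0 in every library and 7 stayed under 1 FPKM. The exception was *Cyp11a1*, which encodes a steroidogenic enzyme, with 1.18, 1.18 and 1.00 FPKM in oEV-EMT and 1.19, 2.36 and 2.25 in oEV-ctrl, lower in oEV-EMT without overlap (log2 fold change -0.44, limma adjusted p = 0.375, and -0.56 with an unadjusted limma p of 0.0249 after median-of-ratios scaling). Of the oviduct epithelium, 5 of 5 markers stayed under 1 FPKM. A gene was tested when it had at least 1 FPKM in at least 3 libraries, which held for 11924 genes. Of the 10 genes described here 8 were tested, and *Cav1* and *Cav2* were not.

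**Figure D1:**
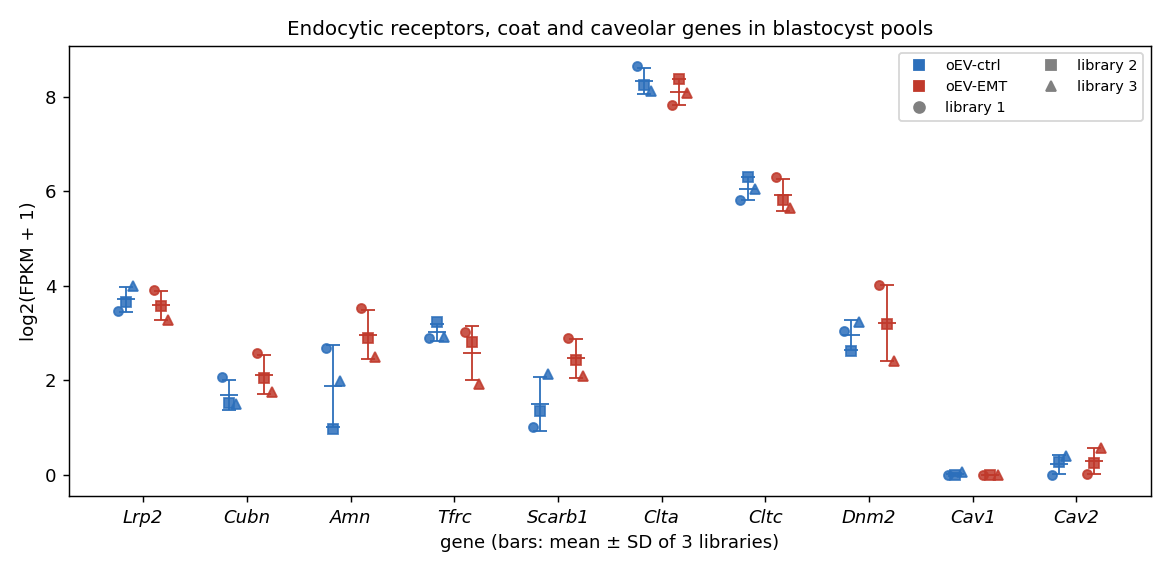
The vertical axis is log2(FPKM + 1) of each of the 10 genes in the 3 oEV-ctrl (blue) and 3 oEV-EMT libraries (red), with bars for the mean ± SD. *Clta* and *Cltc* stood above the other genes in all 6 libraries, *Cav1* and *Cav2* lay near 0, and the groups overlapped in every gene.

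The levels spanned a wide range, as the plot of the 10 genes by library shows. Over the 6 libraries, *Clta* had a mean of 300.0 FPKM (SD 59.1) and *Cltc* 63.3 (SD 12.2), and each lay above the next gene in the order in 6 of 6 libraries. *Lrp2* followed with 11.7 (SD 2.39), *Dnm2* with 8.08 (SD 3.85), *Tfrc* with 6.22 (SD 1.86) and *Amn* with 5.15 (SD 3.26). *Scarb1* had 3.33 (SD 1.96) and *Cubn* 2.89 (SD 1.17). From *Lrp2* down to *Cubn*, neighbours in this order changed places in at least 1 library and did not differ beyond their spread. *Tfrc* was above *Amn* in 3 of the 6 libraries. Among the tested genes *Clta* ranked above 95.9% and *Cubn* above 25.4%.

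The comparison of oEV-EMT with oEV-ctrl asks whether the source of the vesicles went along with a difference in the embryos' own uptake genes. Over all genes tested with limma, 0 passed an adjusted p-value of 0.05, 0% of them, so that 0 of the 8 did. With the unadjusted p-value held to 0.05, 2 of the 8 were higher in oEV-EMT (*Amn* and *Scarb1*) and 0 were lower. Over all tested genes 1831 (15.4%) met that limit, 12.8% with higher and 2.55% with lower values in oEV-EMT. *Amn* was the 1 member that met it while also differing by 1 or more on the log2 scale, which 2.31% of all genes did. In 0 of the 8 genes did the 3 oEV-EMT values all lie above or below the 3 oEV-ctrl values, against 22.4% of all genes (18.1% above and 4.34% below). The median log2 fold change of the 8 genes was 0.06 and that of all tested genes 0.17, and 4 of the 8 lay above the latter. Fold changes are on the scale of log2(FPKM + 1), which understates changes of low values. After median-of-ratios scaling between the libraries, the median of all genes was 0.01, and 12.9% of all genes met the unadjusted limit, 6.53% higher and 6.42% lower. Of the 8 genes, *Scarb1* was then higher and *Tfrc* lower. The split of all genes that met the limit depended on the scaling, with 1921 higher and 192 lower when libraries were scaled to the same total, and 550 higher and 963 lower after upper quartile scaling.

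**Figure D2:**
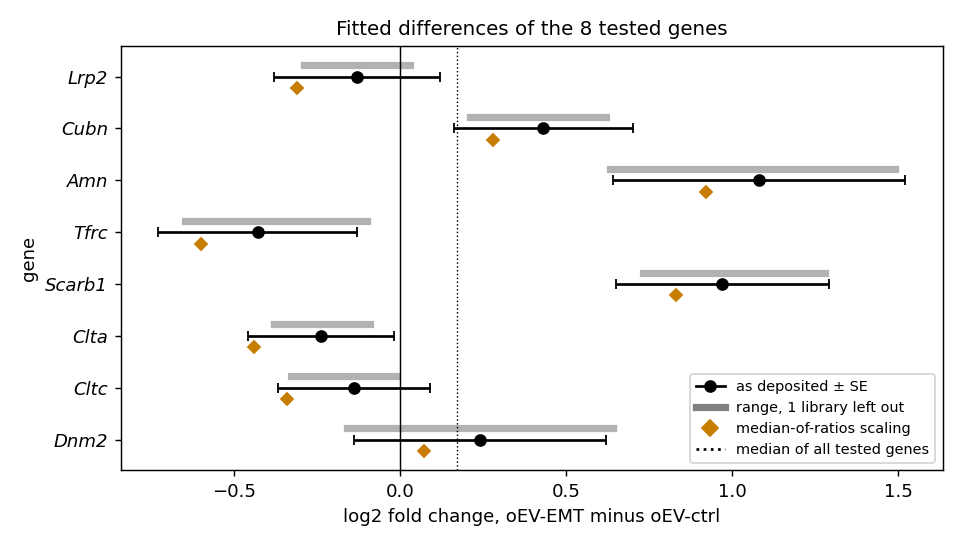
The horizontal axis is the fitted log2 fold change, oEV-EMT minus oEV-ctrl, of the 8 tested genes. Black points are values as deposited with their standard errors, grey bars the range when each library was left out, orange diamonds the values after median-of-ratios scaling, and the dotted line the median of all tested genes at 0.17. *Amn* (1.08) and *Scarb1* (0.97) lie furthest to the right and *Tfrc* (-0.43) furthest to the left.

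Megalin, encoded by *Lrp2* (ENSMUSG00000027070, chromosome 2 of GRCm38, 69424340 to 69586065, minus strand), is a very large receptor that takes up many ligands. Its FPKM was 14.0, 10.9 and 8.67 in oEV-EMT, against 10.1, 11.7 and 15.0 in oEV-ctrl. The groups overlapped throughout, and the log2 fold change was -0.13 (SE 0.25, limma adjusted p = 0.827). It turned to 0.03 without oEV-EMT 3 and to 0.01 without oEV-ctrl 3.

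Cubilin, encoded by *Cubn* (ENSMUSG00000026726, chromosome 2, 13276338 to 13491813, minus strand), binds intrinsic factor with vitamin B12 and has no membrane anchor of its own. It was measured at 4.96, 3.13 and 2.38 FPKM in oEV-EMT and at 3.18, 1.87 and 1.82 in oEV-ctrl. Only oEV-ctrl 1 reached into the oEV-EMT values. The log2 fold change of *Cubn* was 0.43 (SE 0.27, limma adjusted p = 0.476), and 0.21 without oEV-EMT 1. A transcript on the opposite strand, *Gm13270*, shares 1.85% of the *Cubn* stretches of 50 bases and had a mean of 0.469 FPKM. The preparation kit named in the labels is not stated to keep strand, so reads of such pairs cannot be told apart.

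Amnionless, encoded by *Amn* (ENSMUSG00000021278, chromosome 12, 111271095 to 111276426, plus strand), anchors cubilin in the membrane and is needed for its transport to the cell surface. Its FPKM was 10.5, 6.40 and 4.61 in oEV-EMT and 5.48, 0.959 and 2.95 in oEV-ctrl. The lowest oEV-EMT library lay under the highest oEV-ctrl library, oEV-ctrl 1, and in 8 of the 9 pairs of libraries the oEV-EMT value was the higher one. *Amn* had a log2 fold change of 1.08 (SE 0.44, limma adjusted p = 0.293, unadjusted p = 0.0364). Library oEV-ctrl 2, at 0.959 FPKM, was the only one under 1. Without it the log2 fold change was 0.63, with an unadjusted limma p of 0.119, and without oEV-EMT 1 it was 0.80 (limma, unadjusted p = 0.122). The unadjusted p-value was also above 0.05 without oEV-EMT 2 or oEV-ctrl 3. About 80 counts stood behind the value in oEV-ctrl 2 when the longest transcript was used.

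Amnionless and cubilin form the cubam receptor, and megalin works together with it. Ratios within a library do not depend on the scaling between libraries, and these are shown in the plot of subunit ratios. They can still carry a trend over transcript length that differs between libraries, which is described further below. The longest transcripts of *Amn* and *Clta* have 1701 and 1710 bases, those of *Cubn* and *Cltc* 11262 and 6519. No ratio was computed with that trend removed. The ratio of *Amn* to *Cubn* FPKM was 2.11, 2.05 and 1.94 in oEV-EMT and 1.72, 0.513 and 1.62 in oEV-ctrl. The oEV-EMT ratios lay close together and above those of oEV-ctrl, with a log2 difference of 0.85 (two-sided exact permutation p = 0.1, which is as small as 3 libraries against 3 allow). Without oEV-ctrl 2 the difference was 0.28. The ratio of *Cubn* to *Lrp2* was 0.355, 0.286 and 0.274 in oEV-EMT and 0.316, 0.159 and 0.121 in oEV-ctrl. Here oEV-ctrl 1 lay among the oEV-EMT libraries, and the log2 difference of 0.73 had a p of 0.3 in the exact permutation test. It was 1.13 without oEV-ctrl 1 and 0.44 without oEV-ctrl 3. Of the 3 ratios tested, none could reach a p below 0.1 in this design, before or after adjustment.

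**Figure D3:**
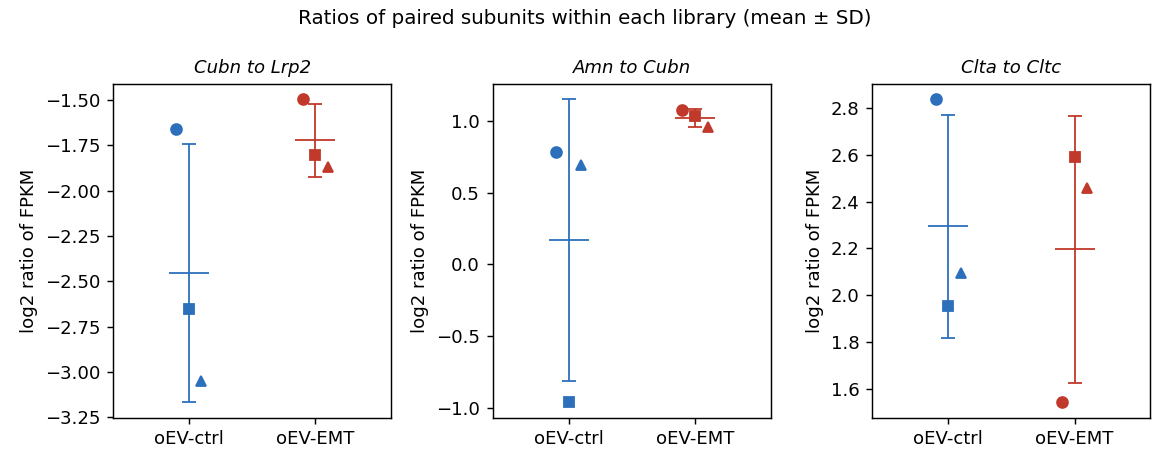
The vertical axes are log2 ratios of FPKM within each library, for *Cubn* to *Lrp2*, *Amn* to *Cubn* and *Clta* to *Cltc*, in oEV-ctrl (blue) and oEV-EMT (red) with bars for the mean ± SD of 3 libraries. The *Amn* to *Cubn* ratios of oEV-EMT (SD 0.06) lie above those of oEV-ctrl (SD 0.98), and the other pairs overlap.

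The lineage that expresses a receptor can differ in size between pools, and in pooled embryos fewer cells of a type and less RNA per cell cannot be told apart. The 6 markers of primitive endoderm summed to between 30.9 and 47.9 FPKM in oEV-EMT and between 31.1 and 37.2 in oEV-ctrl. Of these markers, *Gata4* had a log2 fold change of 0.82 and *Sox17* of 0.95 (limma, adjusted p = 0.174 and 0.302), whereas *Gata6* had -0.19 and *Pdgfra* 0.08. *Sox7* had 0.52 and *Foxa2* 0.01. The *Gata4* and *Sox7* values did not overlap between the groups, with oEV-EMT above, as in 18.1% of all tested genes. The 6 epiblast markers summed to between 83.0 and 104 FPKM in oEV-EMT and between 39.8 and 63.2 in oEV-ctrl, without overlap. Most of this sum was *Nanog* and *Pou5f1* in every library, so its lack of overlap largely repeats that of these genes. *Nanog* (log2 fold change 1.11), *Fgf4* (0.99) and *Pou5f1* (0.97) were above without overlap (limma, adjusted p = 0.187, 0.208 and 0.175). The others did overlap, and *Klf2* had 0.07, *Prdm14* -0.02 and *Sox2* -0.32. The 7 trophectoderm markers summed to between 3123 and 4734 FPKM in oEV-EMT and between 3075 and 4826 in oEV-ctrl. Most of this sum was *Krt18* (means 2556 and 2589) and *Krt8* (means 1179 and 1191), each with a log2 fold change of -0.02. The others had 0.67 (*Elf5*), 0.07 (*Cdx2*), 0.04 (*Tfap2c*), -0.26 (*Gata3*) and -0.39 (*Eomes*), all with overlap. The part of these levels in the values of *Amn*, *Cubn* and *Lrp2* was not tested.

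The scavenger receptor SR-BI, encoded by *Scarb1* (ENSMUSG00000037936, chromosome 5, 125277087 to 125341094, minus strand), takes cholesterol esters from HDL into the cell without taking in the particle. It was measured at 6.43, 4.36 and 3.24 FPKM in oEV-EMT and at 1.02, 1.55 and 3.38 in oEV-ctrl. A single pair of libraries overlapped, oEV-EMT 3 with oEV-ctrl 3. The log2 fold change of *Scarb1* was 0.97 (SE 0.32, limma adjusted p = 0.216, unadjusted p = 0.0127). It stayed between 0.73 and 1.28 with each library left out, and the unadjusted p-value rose above 0.05 without oEV-EMT 1 (0.0515, limma) and without oEV-ctrl 1 (0.0636, limma). No adjusted p-value of *Scarb1* fell below 0.14 under any of the 17 alternatives. The related *Scarb2*, a receptor of the lysosomal membrane, had 8.39 ± 1.51 FPKM in oEV-EMT and 7.26 ± 0.363 in oEV-ctrl (SD, n = 3 each), and *Cd36*, another of this family, stayed at or under 0.0734 FPKM.

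The transferrin receptor, encoded by *Tfrc* (ENSMUSG00000022797, chromosome 16, 32608920 to 32632794, plus strand), brings transferrin-bound iron into the cell by clathrin-coated pits. Its FPKM was 7.11, 5.99 and 2.82 in oEV-EMT and 6.47, 8.40 and 6.52 in oEV-ctrl. The oEV-ctrl libraries lay close together, and oEV-EMT 3 lay well under all other libraries. *Tfrc* had a log2 fold change of -0.43 (SE 0.30, limma adjusted p = 0.513), and -0.10 without oEV-EMT 3. After median-of-ratios scaling all oEV-EMT values of *Tfrc* lay below all oEV-ctrl values, with a log2 fold change of -0.60 (limma, adjusted p = 0.384, unadjusted p = 0.0495). In that scaling 20.1% of all genes had no overlap, 9.94% with oEV-EMT above and 10.2% with oEV-EMT below.

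The clathrin heavy chain, encoded by *Cltc* (ENSMUSG00000047126, chromosome 11, 86694351 to 86757565, minus strand), forms the legs of the triskelion from which the coat is built. It was measured at 77.2, 55.0 and 49.0 FPKM in oEV-EMT and at 55.4, 77.8 and 65.3 in oEV-ctrl. Both groups covered nearly the same range. *Cltc* had a log2 fold change of -0.14 (SE 0.23, limma adjusted p = 0.798). Leaving out 1 library gave between -0.33, without oEV-EMT 1, where the groups no longer overlapped, and -0.01, without oEV-EMT 3. Light chain A, encoded by *Clta* (ENSMUSG00000028478, chromosome 4, 44004452 to 44032846, plus strand), binds the heavy chain and regulates assembly. Its FPKM was 225, 331 and 269 in oEV-EMT and 397, 301 and 278 in oEV-ctrl. The fitted log2 fold change of *Clta* was -0.24 (SE 0.22, limma adjusted p = 0.624). It was -0.09 without oEV-ctrl 1, -0.11 without oEV-EMT 1 and -0.38 without oEV-EMT 2. The highest and the lowest value of *Clta* were both in the libraries numbered 1, in oEV-ctrl and in oEV-EMT. The other light chain, *Cltb*, was far lower, with 6.90 ± 0.687 FPKM in oEV-EMT and 6.36 ± 1.07 in oEV-ctrl (SD, n = 3 each).

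The ratio of light chain A to heavy chain ran from 2.91 to 6.02 in oEV-EMT and from 3.87 to 7.16 in oEV-ctrl. The log2 difference was -0.10 (exact permutation test, p = 0.9). It was 0.23 without oEV-EMT 1 and 0.17 without oEV-ctrl 1. The lowest ratio was in oEV-EMT 1 and the highest in oEV-ctrl 1.

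Dynamin 2, encoded by *Dnm2* (ENSMUSG00000033335, chromosome 9, 21424908 to 21507759, plus strand), is the dynamin of most tissues. It was measured at 15.2, 8.14 and 4.32 FPKM in oEV-EMT and at 7.24, 5.14 and 8.41 in oEV-ctrl. The oEV-EMT group held both the highest and the lowest library. The log2 fold change of *Dnm2* was 0.24 (SE 0.38, limma adjusted p = 0.785), and -0.16 without oEV-EMT 1. *Tmed1*, on the opposite strand, overlaps *Dnm2*, shares 158 stretches of 50 bases with it and had a mean of 12.5 FPKM, so part of the reads of either gene is uncertain. The other dynamins, *Dnm1* and *Dnm3*, known mainly from neurons, stayed at or under 0.191 and 0.0313 FPKM.

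In 7 of the 8 tested genes oEV-EMT 1 had the highest value of its group, the exception being *Clta*. Over all tested genes oEV-EMT 1 was the highest of its group in 48.3%. This library was also the deepest by the step size, at 74.1 counts. In genes whose longest transcript exceeds 5000 bases, the median of log2(FPKM + 1), centred per gene, was 0.27 in oEV-EMT 1, -0.07 in oEV-EMT 2 and -0.18 in oEV-EMT 3. In genes of 1500 to 5000 bases it was 0.21, 0.13 and -0.02, and in genes under 1500 bases 0.00, 0.13 and 0.11. The longest transcripts of *Lrp2*, *Cubn* and *Cltc* have 15460, 11262 and 6519 bases. Those of *Tfrc*, *Dnm2*, *Scarb1*, *Clta* and *Amn* have 4890, 3510, 3093, 1710 and 1701, all in the middle class. *Amn* was highest in oEV-EMT 1 and *Clta* was not, at nearly the same length. With the trend over transcript length removed from each library, the log2 fold changes were -0.13 for *Lrp2*, 0.45 for *Cubn*, 0.79 for *Amn*, 0.76 for *Scarb1* and -0.53 for *Clta* (limma, unadjusted p = 0.509, 0.0853, 0.104, 0.0229 and 0.044). Over all genes 12.6% then met the unadjusted limit, 6.6% higher and 5.96% lower. *Tfrc* was the 1 member without overlap, with oEV-EMT below, as were 9.78% of all genes (9.8% above, 19.6% in all).

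Caveolin 1, encoded by *Cav1* (ENSMUSG00000007655, chromosome 6, 17306335 to 17341452, plus strand), is the main coat protein of caveolae outside muscle. It was listed at 0 in 5 of the 6 libraries and at 0.0394 FPKM in oEV-ctrl 3, which amounts to about 7 counts. Caveolin 2, encoded by its neighbour *Cav2* (ENSMUSG00000000058, chromosome 6, 17281185 to 17289115, plus strand), had 0.0190, 0.201 and 0.494 FPKM in oEV-EMT and 0, 0.210 and 0.325 in oEV-ctrl. The muscle caveolin *Cav3* was listed at 0 in every library. No fold change is given for these genes, which lay under the filter in both groups. *Cav2* was low but detected, with about 69 counts in oEV-EMT 3 and 58 in oEV-ctrl 3, and 0 in oEV-ctrl 1. Of the cavins, which stabilise caveolae, *Cavin1* had 1.18, 0.987 and 1.03 FPKM in oEV-EMT and 0.738, 0.616 and 0.545 in oEV-ctrl, without overlap but under the filter. *Cavin3* had 1.50 ± 0.317 FPKM in oEV-EMT and 0.860 ± 0.0904 in oEV-ctrl (SD, n = 3 each), and passed the filter only through oEV-EMT.

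The genes around these 10 were followed with 6 lists of 100 further endocytic genes, of which 75 were tested. Of the 75, 8 met the unadjusted limit with higher and 1 with lower values in oEV-EMT, 0 met the adjusted one, and the smallest adjusted p-value was 0.118 (limma). Over all genes the shares were 12.8% higher and 2.55% lower. The groups did not overlap in 12, each with oEV-EMT above, against 18.1% of all tested genes. *Cavin3* and *Rab34*, which passed the filter only through oEV-EMT, are among those 12, and *Rab34* is among the 8. The median log2 fold change of the 75 was 0.17, the same as that of all genes, with 38 above and 37 below it. After median-of-ratios scaling 6 were higher and 2 lower by the same limit, where the shares over all genes were 6.53% and 6.42%.

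**Figure D4:**
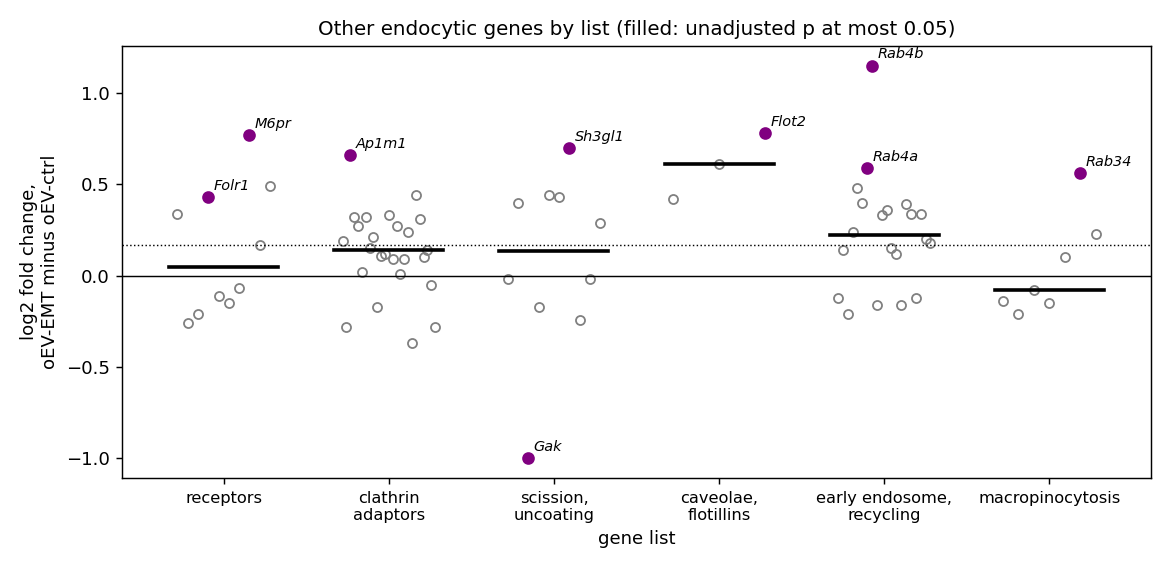
The vertical axis is the log2 fold change, oEV-EMT minus oEV-ctrl, of the 75 tested genes in 6 lists, with filled points for an unadjusted limma p-value up to 0.05, black bars for list medians and a dotted line for the median of all tested genes. Of the filled points, 8 lie above 0 and *Gak* (-1.0) below, and the median of the flotillin and caveola list (3 genes) is 0.61, with *Cavin3* among the 3.

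Among the 10 tested receptors and their partners, *M6pr*, a mannose 6-phosphate receptor, had 48.0 ± 12.0 FPKM in oEV-EMT and 27.8 ± 7.41 in oEV-ctrl (SD, n = 3 each), and its log2 fold change was 0.77 (limma adjusted p = 0.227). *Folr1*, a folate receptor, was abundant at 342 ± 28.9 against 254 ± 33.9 FPKM without overlap. Its log2 fold change was 0.43 (limma adjusted p = 0.312, unadjusted p = 0.0445). After median-of-ratios scaling it was 0.24 (limma, unadjusted p = 0.26). The median of this list was 0.05. The endocytic adaptor *Dab2*, which binds the tail of megalin, had 215, 155 and 104 FPKM in oEV-EMT and 200, 206 and 144 in oEV-ctrl, with overlap. *Lrpap1*, a chaperone of megalin, had a log2 fold change of -0.07. *Dab2* and *Lrpap1* were above *Lrp2* itself in every library.

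Of the 25 tested clathrin adaptors, the AP2 subunits, which link cargo to clathrin at the plasma membrane, had log2 fold changes between 0.02 (*Ap2a2*) and 0.32 (*Ap2b1*). Their levels ran from 0.857 ± 0.179 FPKM for *Ap2a1* in oEV-ctrl to 244 ± 29.5 for *Ap2s1* in oEV-EMT (SD, n = 3 each). *Ap1m1*, a subunit of the AP1 adaptor of the Golgi and endosomes, had a log2 fold change of 0.66 (limma adjusted p = 0.26). The list median was 0.14.

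In scission and uncoating, *Sh3gl1*, an endophilin that acts with dynamin, had 20.1, 16.9 and 12.3 FPKM in oEV-EMT and 8.40, 8.05 and 12.8 in oEV-ctrl. *Gak*, the kinase that helps to strip clathrin from vesicles, had 8.60, 4.32 and 3.18 FPKM in oEV-EMT and 20.0, 9.89 and 6.51 in oEV-ctrl. The log2 fold change of *Gak* was -1.0 (SE 0.42, limma adjusted p = 0.305), and -0.60 without oEV-ctrl 1, its highest library. In both genes 1 pair of libraries overlapped. The list median over 10 genes was 0.14.

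Flotillin 2, encoded by *Flot2*, marks a further kind of membrane domain and had 9.65, 12.5 and 7.34 FPKM in oEV-EMT and 4.96, 4.83 and 5.80 in oEV-ctrl. The values did not overlap (log2 fold change 0.78, SE 0.24, limma adjusted p = 0.192). Of the 20 tested genes of early endosomes and recycling, *Rab4b* had the smallest p-value of all the lists, with 11.8, 12.8 and 16.6 FPKM in oEV-EMT and 4.75, 4.75 and 7.55 in oEV-ctrl. Its log2 fold change was 1.15 (SE 0.25, limma adjusted p = 0.118). *Rab4a*, its paralog in fast recycling, had 0.59 (limma adjusted p = 0.288), and neither overlapped between the groups. After median-of-ratios scaling *Rab4b* had 0.98 and *Rab4a* 0.40 (limma, unadjusted p = 0.00264 and 0.0904). *Rab34*, of the 7 macropinocytosis genes, had 1.14 ± 0.0644 FPKM in oEV-EMT and 0.456 ± 0.0632 in oEV-ctrl (SD, n = 3 each), and passed the filter only through oEV-EMT.

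Profiles over the 6 libraries were compared as the mean absolute difference of log2(FPKM + 1), centred per gene, between each tested gene and the other 82 tested genes of the lists. The closest profile to *Scarb1* was that of *Sh3gl1* (0.171), where the median over the list was 0.479. A closest profile lies under such a median whatever the data, and the profiles include the difference between the groups. *Lrp2* lay closest to *Rbsn* (0.105, median 0.291), *Cltc* to *Cyfip1* (0.0835, median 0.298) and *Tfrc* also to *Cyfip1* (0.144, median 0.38). For *Amn* the closest was *Rab4a* (0.36) with *Cubn* next (0.364), where the median was 0.602. *Clta* lay closest to *Fcgrt* (0.149) and *Dnm2* to *Epn3* (0.161).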

How the data were processed

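The study sequenced polyadenylated RNA of mouse blastocysts, aligned the reads to the mouse genome (mm10 in the submitters' processing notes, aligner not given in the sources used here) and assembled transcripts with StringTie. The authors deposited 1 value per gene and library for 55774 genes. The methods name TPM, but the sums per library lay between 1293175 and 1551567 and differed, so the deposited values were treated as FPKM, relative to the fragments of each library. Names, coordinates and lengths came from GENCODE M21 on GRCm38, which 55141 identifiers matched. One list symbol was matched by its synonym.

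Groups were taken from the sample titles. Log2(FPKM + 1) of genes with at least 1 FPKM in at least 3 libraries was fitted for 11924 genes with limma 3.58.1 (R 4.3.3), with all 6 libraries, no covariate, and a robust variance trend, and the Benjamini-Hochberg adjustment ran over all of them. The study's thresholds were used (adjusted p-value 0.05, log2 fold change 1 in either direction). Tested on simulated data made from these 11924 genes for this comparison, the fit called 35.9% of the genes given a log2 change of 1, 96.7% at a change of 2 and 97.8% at 3. Ratios between genes were compared by exact permutation tests in scipy 1.17.1. Depth was derived from the steps of low FPKM in genes with 1 transcript longer than 600 bases (tolerance 1.5%), and counts behind single genes are approximate. Sharing was searched as identical stretches of 50 bases on either strand.

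The members and lists were chosen with earlier results of these data known. Named genes were the 10 members, fixed partners and paralogs, up to 2 genes per list and direction by smallest unadjusted p-value, and the closest profiles, of which some are not reported here. *Scarb2*, *Cd36*, *Cavin3*, *Cav3*, the single lineage markers and the genes of the closing section were named after their values were seen. Alternatives covered scaling, filter, pseudocount, variance model, replicate block and leaving out each library, with transcript length and library weights added after seeing the data.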

Additional observations from a re-analysis of the deposited data

How the results depend on the processing

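None of the 8 tested members passed an adjusted p-value of 0.05 under any of the 17 alternatives, and the direction turned in 3 of 136 refits, in *Lrp2* (-0.29 to 0.03 with 1 library left out) and *Dnm2* (-0.16 to 0.64). The number of genes past both thresholds was 0, and 21 with the replicate block, 0 to 17 with 1 library left out, 104 with libraries weighted by quality and 276 with an unadjusted p-value. Correlations of deviations were 0.119, -0.044 and 0.039 for libraries of the same number, and between -0.135 and 0.122 for different numbers. Only for oEV-EMT 1 of the oEV-EMT libraries was the best match its own number. Whether the replicate numbers pair the libraries cannot be settled with 3 libraries per group. With the block *Amn* and *Scarb1* had unadjusted limma p-values of 0.00452 and 0.0179, and no call of a member changed. Members that met the unadjusted limit of 0.05 numbered 2 of 8, but 1 without a filter, 1 with a pseudocount of 0.1 and 0 to 2 with 1 library left out, the lowest without oEV-EMT 1. Of all 11924 genes, 1527 were higher and 304 lower by this limit in the main fit. These numbers were 1507 and 301 with the pseudocount of 0.1, and 1605 and 577 without oEV-EMT 1. Without a filter they were 1753 and 570 of 31842 genes. Members without overlap numbered 0, but 1 after median-of-ratios scaling, 1 after upper quartile scaling and 1 with the length trend removed (*Tfrc* each time). Over all genes 22.4% had no overlap in the main fit, 20.1% after median-of-ratios scaling and 19.6% with the length trend removed. Members without overlap numbered 0 to 2 with 1 library left out, where overlap is less likely because fewer libraries remain. For that setting and for upper quartile scaling the share over all genes is not given. The relative median of the endocytic lists was 0.00, 0.11 without a filter and -0.06 to 0.03 with 1 library left out. The log2 difference of the *Clta* to *Cltc* ratio, -0.10, lay between -0.29 and 0.23 with 1 library left out. Causes were not tested. In the simulated data, where genes varied independently, 35.9% of the genes given a log2 change of 1 were called. A call needed both thresholds, so an estimate under 1 could not be called, and changes below 1 were not simulated. How often smaller differences can be detected with 3 libraries per group is therefore not known.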

Other observations

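Among the other endocytic genes, those with the highest mean level were *Snx2*, *Cdc42* and *Hspa8*. *Snx2*, a sorting nexin of the retromer pathway, had 865, 1450 and 1552 FPKM in oEV-EMT and 733, 1165 and 1132 in oEV-ctrl, with overlap. *Snx1*, its partner, had 275 ± 42.8 FPKM in oEV-EMT and 209 ± 19.7 in oEV-ctrl (SD, n = 3 each), without overlap (log2 fold change 0.39, limma adjusted p = 0.372). After median-of-ratios scaling *Snx1* had 0.19 (limma, unadjusted p = 0.358). *Sdc4*, a heparan sulfate proteoglycan of the cell surface to which vesicles can bind, had 338, 274 and 263 FPKM in oEV-EMT and 152, 216 and 265 in oEV-ctrl. Its log2 fold change was 0.49 with an adjusted p-value of 0.348 (limma), and 1 pair of libraries overlapped. *Sdc1*, the related syndecan, stayed under 1 FPKM in every library.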
